A study of Mus musculus with 24 samples.

Results

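The genes described here are 42 DNA replication and S phase genes, taken as a list of symbols that covers the replicative helicase and its loading and activation, the polymerases, the sliding clamp and its loader, nucleotide supply, replication-coupled chromatin and the G1/S regulator E2f1. Each gene was read from 1 Affymetrix probe set, the one with the highest mean over all arrays among those assigned to a single symbol, and 41 of the 42 had one among 18193 genes in all. Chaf1a had no such probe set and has no value. The cells were CD4+ T cells of C57BL/6 mice with the 2D2 TCR transgene, which all groups carried, primed under Th1 conditions for 48 h on plates coated with antibodies to CD3 and CD28, and then expanded for 2 days. Priming took place with DMSO, with Control-768, or with I-BET-762 at 0.25 or 0.5 µM. RNA was taken from the resting cells or after 4 h of restimulation on the same antibodies (labelled activated). Each of the 8 groups had 3 biological replicates, numbered 1 to 3, which gives 24 arrays. I-BET-762 inhibits BET proteins, whose bromodomains read acetylated histones, and Control-768 is the study's control compound. Its concentration, and whether the compounds were present during restimulation, are not given in the sources used here.

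In G1, the origin recognition complex (ORC), Cdc6 and Cdt1 load the MCM helicase on DNA. In S phase, Cdc45 and the GINS complex activate that helicase, primase and the polymerases copy the strands, and the clamp Pcna, loaded by replication factor C (RFC), holds the polymerases on the template. Ribonucleotide reductase, thymidylate synthase and thymidine kinase supply the building blocks. Many of these genes are transcribed at the G1/S boundary under E2F factors, and T cells express them strongly during the rapid divisions that follow priming.

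The promoters of the list were searched for E2F-like letters because the genes are known for that shared control. RefSeq promoter windows (build GRCm38.p6) from 250 bases before to 50 after the annotated start, 300 bases in all, were matched by symbol for 36 of the 42 genes. The words TTTCCCGC, TTTGGCGC, TTTGCCGC and TTTCGCGC, on either strand and allowed to overlap, occurred in a window of 13 of these 36 genes (36.1%), against 704 of 27025 genes (2.6%). The CCAAT box (CCAAT) occurred in 61.1% against 41.1% of genes, the E-box CACGTG in 19.4% against 8.1%, and the CHR word TTTGAA of mitotic promoters in 11.1% against 20.2%. A match is only a description of letters. The stretches printed here belong to genes whose values are given by array, and each held an E2F word before the start. They are Cdc6 at chr11:98907941-98908040 (plus strand), Mcm5 at chr8:75109288-75109387 (plus strand), Orc1 at chr4:108579355-108579453 (plus strand), Pola1 at chrX:93632266-93632365 (minus strand), Rfc3 at chr5:151651209-151651290 (minus strand) and Uhrf1 at chr17:56304063-56304155 (plus strand). Each is printed 5′ to 3′ on the gene's own strand, and capitals mark the E2F words. The word nearest to the start lay 130 bases before it in Cdc6, 141 in Mcm5, 19 in Orc1, 130 in Pola1, 2 in Rfc3 and 177 in Uhrf1.
Cdc6: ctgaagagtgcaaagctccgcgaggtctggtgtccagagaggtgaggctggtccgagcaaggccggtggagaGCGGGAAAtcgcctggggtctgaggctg
Mcm5: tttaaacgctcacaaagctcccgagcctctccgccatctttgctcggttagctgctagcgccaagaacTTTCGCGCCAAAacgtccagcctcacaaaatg
Orc1: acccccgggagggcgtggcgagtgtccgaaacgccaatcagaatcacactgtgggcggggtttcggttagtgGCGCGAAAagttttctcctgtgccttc
Pola1: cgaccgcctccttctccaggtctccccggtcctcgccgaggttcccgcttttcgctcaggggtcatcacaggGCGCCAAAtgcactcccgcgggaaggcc
Rfc3: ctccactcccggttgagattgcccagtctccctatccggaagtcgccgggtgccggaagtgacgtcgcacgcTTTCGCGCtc
Uhrf1: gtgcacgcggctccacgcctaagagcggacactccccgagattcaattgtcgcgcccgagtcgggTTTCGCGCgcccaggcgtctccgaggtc
Mcm5 holds 2 overlapping words in opposite orientation, and the other 5 stretches hold 1 each. Of the genes whose value on restimulation under Control-768 was negative, 10 of 25 with a window held an E2F word, and of those with a positive value 3 of 10.

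The deposited values are linear intensities with array medians of 37.4 to 44.4 and 28.8% to 30.8% of probe sets under 16, so all arrays share about the same scale. Differences are given on the scale log2(intensity + 16), which understates the change of dim genes. The defining T cell markers were present, with Cd3d at 5841 to 9525 and Cd4 at 364 to 1143 over the 24 arrays. All 8 CD4 T cell markers were measured (summed 24656 to 35528), 4 of 5 of B cells (37.3 to 79.7, with Cd79a and Pax5 down to 1), 6 of 6 of myeloid cells (185 to 291, with Itgam down to 1), 3 of 4 of NK cells (73.6 to 142), 2 of 2 of CD8 T cells (412 to 957) and 5 of 5 of dendritic cells and MHC class II (409 to 2422). Nearly all of the last sum was H2-Ab1 (261 to 2304). Most of the CD8 T cell sum was Cd8b1 (320 to 859), with Cd8a at 51 to 124. The arrays numbered 3 lay farther from their group means, with an SD of deviations over all genes of 0.23 to 0.34 log2 against 0.17 to 0.24 for those numbered 1 and 2. It was highest for number 3 at 0.5 µM I-BET-762 (0.33 resting, 0.34 restimulated). On those 2 arrays most of the replication genes were low, and the genes called on restimulation at 0.5 µM that are described one by one are given with and without them.

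Restimulation for 4 h lowered several genes of the replication fork and raised Orc1. Under Control-768, 6 of the 41 genes passed the test (limma, Benjamini-Hochberg adjusted p under 0.05 over all 18193 genes), against 20.0% of all genes. Of these, 5 fell, the primase subunit Prim2, the polymerase subunits Pold1 and Pola1, the clamp loader subunit Rfc2 and the licensing factor Cdt1, against 11.2% of all genes falling. Only Orc1 rose, against 8.86% of all genes. In this fit the shares called and called lower lie near those of all genes. The share called higher is below that of all genes but rests on 1 gene. The counts of calls in this fit are therefore not a result about the list. The direction was mostly downward: 31 of 41 genes had a negative value, against 9697 of 18193 genes, and the median was -0.24 log2, against -0.03 over all genes. In 22 genes all 3 restimulated arrays were below all 3 resting arrays, against 19.8% of all genes, and in 3 genes all were above, against 16.6%. In RNA of whole cultures, fewer cells in S phase and less of these RNAs per cell cannot be told apart. Markers of other cells also differed between the states. Over the 6 control arrays of a state, the summed CD8 T cell markers were 412 to 601 in resting and 613 to 907 in restimulated cells, and the dendritic and MHC class II sum was 1377 to 2422 and 839 to 1608. Within Control-768 the latter went from 2401 to 1504, from 2357 to 1594 and from 1377 to 839 in the pairs numbered 1, 2 and 3. The sums were 60.6 to 79.7 and 37.3 to 68.6 for B cells, 240.4 to 283 and 201 to 280.4 for myeloid cells, and 81.9 to 103 and 88.2 to 98.0 for NK cells. Their part in the restimulation values was not tested. RNA quality was read as the 3' minus 5' difference of the Gapdh control probe sets. Under Control-768 it went from 0.04 to -0.008, 0.092 to 0.094 and -0.02 to 0.28 in the pairs numbered 1, 2 and 3. For the Actb control probe sets it went from 0.26 to 0.21, 0.278 to 0.279 and 0.20 to 0.32. The part of RNA quality was not tested either.

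The count of calls under Control-768 depended on the 2 low arrays numbered 3. They belong to other groups, but all groups share one estimate of the spread. With both left out, an alternative chosen after the data were seen, the differences under Control-768 were the same and their standard errors smaller. Then 19 genes passed, 18 lower and 1 higher, against 25.1% of all genes and 14.3% lower. All 6 of the genes above were among them. The added 13 were Gins1, Gins2, Rfc1, Rfc4, Pole, Pole2, Lig1, Rpa1, Tk1, Chaf1b, Mcm4, Mcm5 and Mcm7, all lower. Without the arrays numbered 1 of all groups no gene passed, and without those numbered 2 there were 2. The shares of all genes in these fits are not given here.

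**Figure D1:**
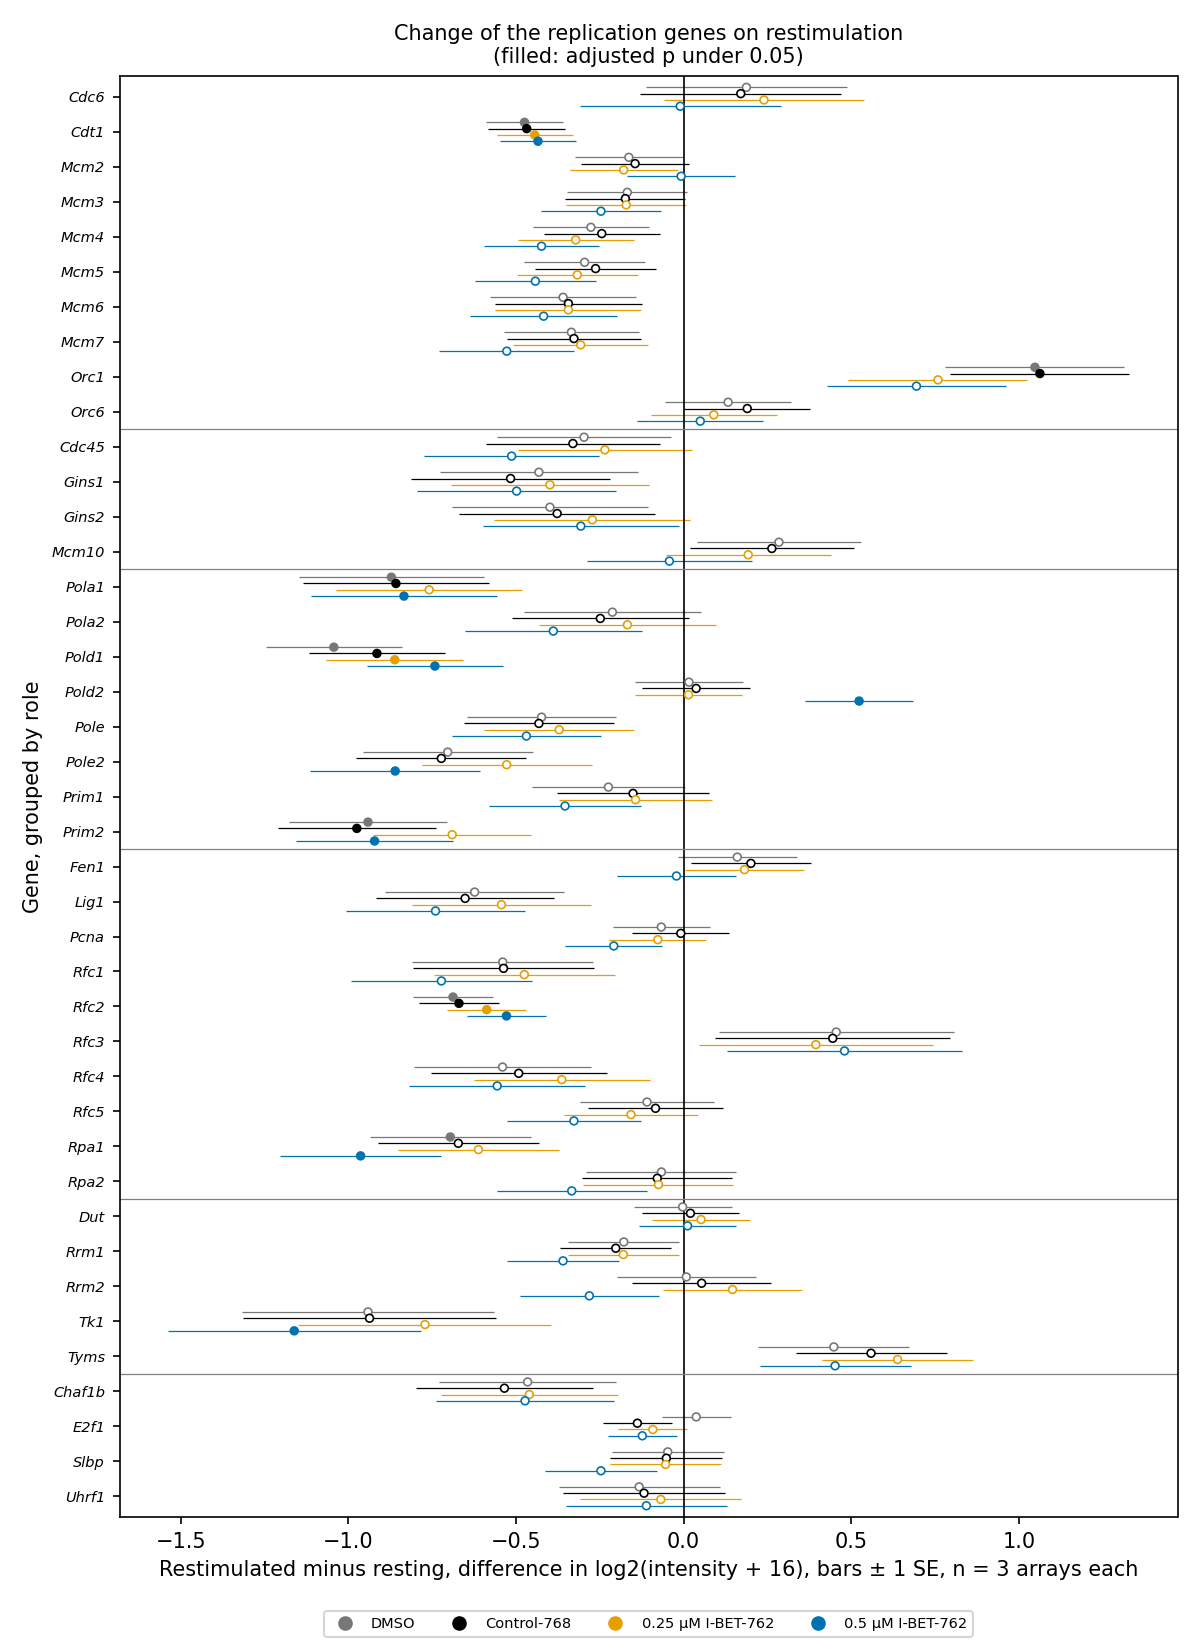
Each point is 1 gene's difference in log2(intensity + 16), restimulated minus resting cells, under DMSO (grey), Control-768 (black), 0.25 µM (orange) or 0.5 µM I-BET-762 (blue), with bars of 1 SE and 3 arrays per group. Filled points passed the test. Cdt1, Pold1 and Rfc2 lie left of 0 with filled points in all 4 conditions, and Orc1 lies farthest to the right.

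Among the 10 genes of origin licensing and the MCM ring, 1 rose, 1 fell and 8 did not pass under Control-768. Orc1 is the largest subunit of ORC. Orc1 read 302, 386 and 224 in the arrays numbered 1, 2 and 3 of resting cells with DMSO, 318, 366 and 216 with Control-768, 395, 425 and 266 with 0.25 µM and 335, 416 and 182 with 0.5 µM I-BET-762. After restimulation its intensities were 645, 588 and 662 with DMSO, 734, 553 and 617 with Control-768, 682, 538 and 622 with 0.25 µM and 616, 526 and 356 with 0.5 µM. Under DMSO, Control-768 and 0.25 µM every restimulated array was above every resting array. Orc1 rose by 1.06 ± 0.27 (SE, adjusted p = 0.00767) log2 with Control-768 and by 1.05 ± 0.27 (adjusted p = 0.0082) with DMSO. The differences with I-BET-762 were 0.76 ± 0.27 (adjusted p = 0.0635) at 0.25 µM and 0.69 ± 0.27 (adjusted p = 0.0679) at 0.5 µM, which did not pass. A second Orc1 probe set, with a mean of 99.9, had a difference of 0.91 under Control-768.

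Cdt1, which brings the MCM ring to the origin, read 5007, 5244 and 5219 in resting and 3717, 3777 and 3674 in restimulated cells with Control-768. The restimulated arrays were below the resting ones in each of the 4 conditions. Cdt1 fell in all of them, with differences of -0.47 ± 0.11 (adjusted p = 0.00614) log2 with Control-768, -0.47 ± 0.11 (adjusted p = 0.00543) with DMSO, -0.44 ± 0.11 (adjusted p = 0.0124) at 0.25 µM and -0.43 ± 0.11 (adjusted p = 0.00826) at 0.5 µM. The 0.5 µM call was lost without the restimulated array numbered 3 (-0.28, adjusted p = 0.0653), and with both low arrays left out the difference was -0.38 ± 0.09 (adjusted p = 0.00876). Its probe set can match several transcripts. With such probe sets left out, another Cdt1 probe set took its place, with the same difference of -0.47 under Control-768, and did not pass (adjusted p = 0.0866). With the mean of all Cdt1 probe sets the differences were -0.27 (adjusted p = 0.147) under Control-768 and -0.29 (adjusted p = 0.134) at 0.25 µM, and both calls were lost.

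Cdc6 is the ATPase that works with ORC in loading. Cdc6 read 1626, 1839 and 1758 in resting cells with DMSO, 1703, 1849 and 1655 with Control-768, 2032, 1784 and 1589 with 0.25 µM and 1996, 2101 and 885 with 0.5 µM I-BET-762. The restimulated cells gave 2183, 2106 and 1692 with DMSO, 2046, 2024 and 1799 with Control-768, 2230.3, 2119 and 2013 with 0.25 µM and 2205, 2070.0 and 795 with 0.5 µM. The groups overlapped, and the difference of 0.17 ± 0.30 (adjusted p = 0.772) under Control-768 did not pass. The 2 lowest values were those of the arrays numbered 3 at 0.5 µM. Mcm5, a subunit of the helicase ring, read 5233, 5434 and 5672 in resting and 4838, 4659.8 and 4136 in restimulated cells with Control-768. Its groups did not overlap, but the difference of -0.26 ± 0.18 (adjusted p = 0.359) did not pass. The 6 ring subunits Mcm2 to Mcm7 ranged from -0.34 (Mcm6) to -0.14 (Mcm2) under Control-768. Orc6, a further ORC subunit, had a difference of 0.19 and did not pass.

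Of the 4 genes of helicase activation none passed under Control-768. Cdc45, the factor that turns the loaded ring into a moving helicase, read 1022, 913 and 1014 in resting and 928, 736 and 687 in restimulated cells with Control-768. These values overlapped, and the difference was -0.33 ± 0.26 (adjusted p = 0.437). Another Cdc45 probe set, with a mean of 130.1, had 0.12. The GINS subunits Gins1 and Gins2 had differences of -0.52 and -0.38 with no overlap between the groups. Mcm10, which acts beside them at the origin, had a difference of 0.26, with overlap.

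The polymerase and primase genes had the lowest median of the 6 roles under Control-768, -0.58 log2, and 3 of 8 fell. Prim2 is the large subunit of the primase that starts each new strand. Prim2 read 1296, 1275 and 1201 in the arrays numbered 1, 2 and 3 of resting cells with DMSO, 1321, 1269 and 1168 with Control-768, 1389, 1201 and 1221 with 0.25 µM and 1453, 1307 and 1018 with 0.5 µM I-BET-762. After restimulation it read 602, 725 and 619.9 with DMSO, 703, 688 and 514 with Control-768, 751, 905 and 696 with 0.25 µM and 858, 892 and 356 with 0.5 µM. All restimulated arrays were below all resting ones in every condition. Prim2 fell in 3 conditions, with differences of -0.97 ± 0.24 (adjusted p = 0.00578) log2 with Control-768, -0.94 ± 0.24 (adjusted p = 0.00724) with DMSO and -0.92 ± 0.24 (adjusted p = 0.00685) at 0.5 µM. Its difference at 0.25 µM was -0.69 ± 0.24 (adjusted p = 0.0552), which did not pass. At 0.5 µM it was -0.50 without the restimulated array numbered 3 and -0.65 ± 0.15 (adjusted p = 0.00985) with both low arrays left out. The small subunit Prim1 had a difference of -0.15 ± 0.23 (adjusted p = 0.727) with Control-768.

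Pold1 is the catalytic subunit of polymerase delta, which copies mainly the lagging strand. Pold1 read 1697, 1714 and 1518 in resting cells with DMSO, 1593, 1570.2 and 1459.8 with Control-768, 1656, 1520.4 and 1526 with 0.25 µM and 1415, 1415 and 975 with 0.5 µM I-BET-762. In restimulated cells the values were 808, 779 and 777 with DMSO, 933, 752 and 756 with Control-768, 988, 842 and 750.3 with 0.25 µM and 973, 914 and 456 with 0.5 µM. The states were again separate in each condition. Pold1 fell in all 4, with differences of -0.91 ± 0.20 (adjusted p = 0.00324) log2 with Control-768, -1.04 ± 0.20 (adjusted p = 0.00117) with DMSO, -0.86 ± 0.20 (adjusted p = 0.00748) at 0.25 µM and -0.74 ± 0.20 (adjusted p = 0.0112) at 0.5 µM. The 0.5 µM call was lost without the restimulated array numbered 3 (-0.40, adjusted p = 0.0824) or the resting array numbered 1 (adjusted p = 0.0515), and with both low arrays left out the difference was -0.58 ± 0.13 (adjusted p = 0.00699). A second Pold1 probe set gave -1.06 with Control-768.

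Pola1, the catalytic subunit of polymerase alpha, which extends the primer, read 1185, 1188 and 1374 in resting and 635, 674 and 736 in restimulated cells with Control-768. At 0.5 µM it read 1245, 1271 and 723 and 749, 885 and 291. Without overlap under Control-768 and with overlap at 0.5 µM, Pola1 fell in both conditions, with differences of -0.86 ± 0.28 (adjusted p = 0.0327) and -0.83 ± 0.28 (adjusted p = 0.0335). The Control-768 call was lost when any 1 of its 6 arrays was left out (adjusted p = 0.0634 to 0.0983), and the 0.5 µM call was lost without the restimulated array numbered 3 (adjusted p = 0.271), the resting array numbered 1 (0.124) or the resting array numbered 2 (0.125). With both low arrays left out the 0.5 µM difference was -0.62 ± 0.16 (adjusted p = 0.0149). Pola1 also fell with DMSO, with a difference of -0.87. That call was lost without the restimulated DMSO array numbered 1 (adjusted p = 0.114) or 2 (0.0652), or the resting one numbered 1 (0.0564) or 3 (0.107). With the mean of all Pola1 probe sets, of which the other had a mean of 6.64, the calls were lost (adjusted p = 0.0825 with Control-768, 0.0508 with DMSO and 0.701 at 0.5 µM).

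Pole2, a subunit of the leading-strand polymerase epsilon, had a difference of -0.72 ± 0.25 (adjusted p = 0.0505) with Control-768, just outside the threshold, and Pole one of -0.43. At 0.5 µM Pole2 passed and fell, with a difference of -0.86. That call was lost without the restimulated array numbered 3 (-0.40, adjusted p = 0.1175) or the resting array numbered 1 or 2 (adjusted p = 0.07 each). With both low arrays left out the difference was -0.61, and it passed. Pold2, the second subunit of polymerase delta, did not follow Pold1. It read 1408, 1285 and 770.1 in resting and 1620.3, 1569 and 1651 in restimulated cells at 0.5 µM, where it rose by 0.52 ± 0.16 (adjusted p = 0.0215). With both arrays numbered 3 at 0.5 µM left out that adjusted p was 0.275, and the difference under Control-768 was 0.04.

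Of the 10 genes of the clamp, its loader, strand binding and Okazaki fragment joining, 1 fell under Control-768. Rfc2 is a small subunit of the clamp loader. Rfc2 read 1869.7, 1732 and 2018 in resting cells with DMSO, 1868, 1780.5 and 1877 with Control-768, 1962, 1807 and 1928 with 0.25 µM and 1963, 1765 and 1567 with 0.5 µM I-BET-762. After restimulation the values were 1099, 1178 and 1189 with DMSO, 1172, 1155 and 1127 with Control-768, 1229, 1229 and 1317 with 0.25 µM and 1326, 1392 and 968 with 0.5 µM. Each restimulated array was below each resting array in all conditions. Rfc2 fell, with differences of -0.67 ± 0.12 (adjusted p = 0.000534) log2 with Control-768, -0.69 ± 0.12 (adjusted p = 0.000424) with DMSO, -0.59 ± 0.12 (adjusted p = 0.00261) at 0.25 µM and -0.53 ± 0.12 (adjusted p = 0.0026) at 0.5 µM, where it was -0.45 ± 0.10 (adjusted p = 0.00631) with both low arrays left out. Its 2 other probe sets gave -0.89 and -1.01 with Control-768.

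Pcna, the sliding clamp, stayed within its replicate spread. It read 10948, 10864 and 11286 in resting and 11902, 11293 and 9810.2 in restimulated cells with Control-768. The groups overlapped, and the difference was -0.01 ± 0.14 (adjusted p = 0.981), with a 95% interval of -0.31 to 0.29. The single-strand binding subunit Rpa1 had a difference of -0.67 ± 0.24 (adjusted p = 0.0552) with Control-768, which did not pass. It fell with DMSO and at 0.5 µM, with differences of -0.70 ± 0.24 (adjusted p = 0.0456) and -0.96 ± 0.24 (adjusted p = 0.00592). The DMSO call of Rpa1 was lost without any 1 of its 6 arrays (adjusted p = 0.0765 to 0.125). With both low arrays left out the 0.5 µM difference of Rpa1 was -0.48 ± 0.11 (adjusted p = 0.0102). Lig1, the ligase that joins Okazaki fragments, had a difference of -0.65 ± 0.27 (adjusted p = 0.0958) with Control-768, and Fen1, which trims their flaps, one of 0.20. The loader subunits did not share a direction: Rfc1, Rfc4 and Rfc5 had differences of -0.54, -0.49 and -0.08 and Rfc3 one of 0.44, none of which passed.

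None of the 5 nucleotide supply genes passed under Control-768. Rrm2, the S phase subunit of ribonucleotide reductase, read 6357, 6759.9 and 6334 in resting and 6568, 7010.2 and 6610.2 in restimulated cells with Control-768. The values overlapped, and the difference was 0.05 ± 0.21 (adjusted p = 0.909), with a 95% interval of -0.38 to 0.49. Tyms, thymidylate synthase, was represented by a dim probe set, with 72.3, 61.1 and 56.0 in resting and 111, 82.0 and 109.7 in restimulated cells with Control-768. A probe set of Tyms that also names its pseudogene was left out. The 3 restimulated arrays of Tyms were above the resting ones, but the difference of 0.56 ± 0.23 (adjusted p = 0.0905) did not pass.

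Tk1, thymidine kinase, had the largest spread over arrays of all 41 genes (SD of deviations from group means 0.50). Tk1 read 1945, 1795 and 2249 in resting cells with DMSO, 1986, 1777 and 2191 with Control-768, 2042, 1758 and 1893 with 0.25 µM and 2145, 1613 and 1318 with 0.5 µM I-BET-762. In restimulated cells it read 1151, 1002 and 941 with DMSO, 1242, 1018 and 852 with Control-768, 1251, 1224 and 876 with 0.25 µM and 1234, 1240.3 and 251 with 0.5 µM. The states did not overlap in any condition, and of the 4 conditions Tk1 passed only at 0.5 µM, where it fell with a difference of -1.16 ± 0.38 (adjusted p = 0.03). That call was lost without the restimulated array numbered 3 (adjusted p = 0.177) and without the resting array numbered 1 (0.119) or 2 (0.0591). With both arrays numbered 3 left out the difference was -0.58 (adjusted p = 0.0653). With Control-768 the difference was -0.94 ± 0.38 (adjusted p = 0.0905). Dut, which removes dUTP, and the reductase subunit Rrm1 had differences of 0.02 and -0.20 with Control-768. Another Dut probe set, with a mean of 124.3, had -0.55.

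None of the 4 measured chromatin and control genes passed on restimulation. Chaf1b, a subunit of the chromatin assembly factor CAF-1, read 461, 376 and 408 in resting and 341, 267 and 243 in restimulated cells with Control-768 and had a difference of -0.53 ± 0.26 (adjusted p = 0.178), with no overlap. Uhrf1, which helps to copy DNA methylation, read 3521, 3426 and 3709.8 and 3518, 3396 and 2926 in the same groups. Its values overlapped (difference -0.12 ± 0.24 (adjusted p = 0.806)). Slbp, which binds histone mRNA, read 4846, 4899.7 and 4980.1 and 5066, 5005 and 4186, also with overlap (difference -0.05 ± 0.17 (adjusted p = 0.887)). Another Slbp probe set, with a mean of 151.4, had 0.66.

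E2f1, the transcription factor of the G1/S genes, read 510.5, 501 and 569 in resting and 485, 468 and 477 in restimulated cells with Control-768. The restimulated values were the lower ones, with a difference of -0.14 ± 0.10 (adjusted p = 0.408). Its probe sets disagreed: another E2f1 probe set, with a mean of 274.8, had 0.38 in the same comparison. Over the list, 37 other probe sets had a mean intensity of at least 50. Of these, 31 had the same sign as the chosen one in that comparison.

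**Figure D2:**
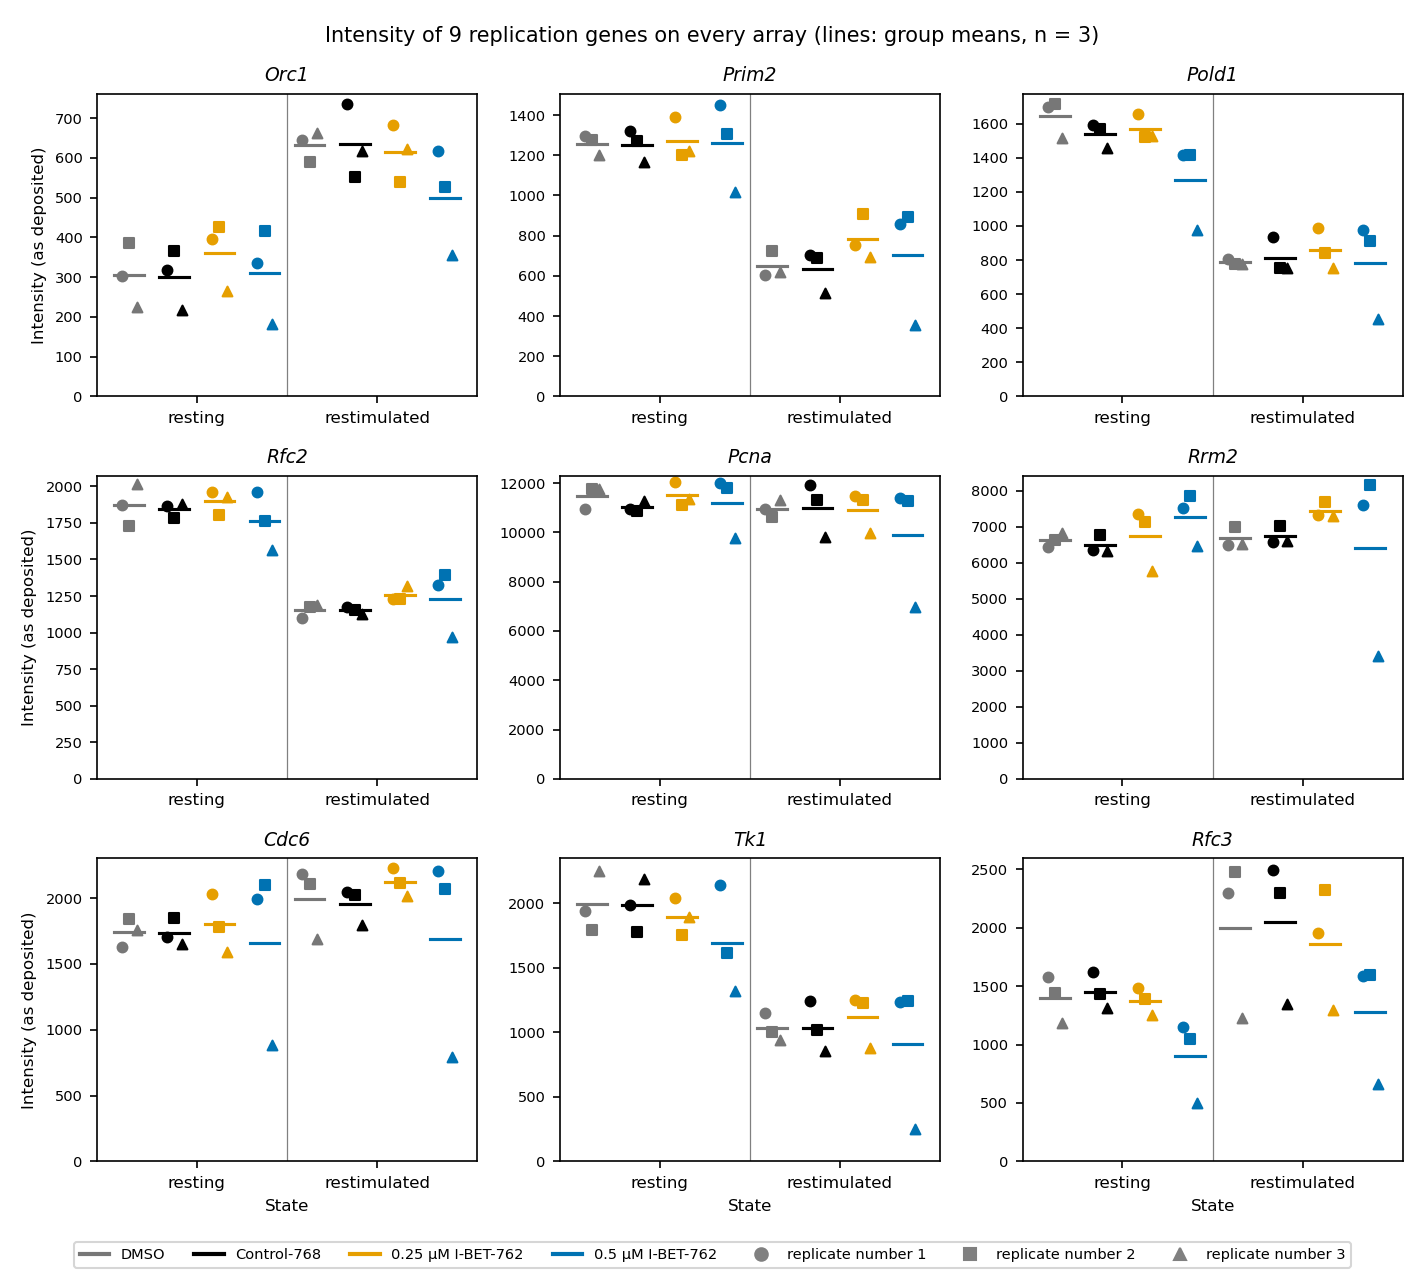
Deposited intensity of 9 genes on every array, by state (x axis) and priming condition (colour), with the replicate number as the symbol and the group mean as a line (n = 3). Under Control-768, Prim2, Pold1, Rfc2 and Tk1 have lower and Orc1 higher values after restimulation, and Pcna and Rrm2 overlap between states. The array numbered 3 of restimulated cells with 0.5 µM I-BET-762 is the lowest of all 24 for every gene shown except Orc1 and Rfc3.

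The same comparison in the other 3 conditions had its own resting and restimulated arrays, so the conditions are set side by side. With DMSO 1 gene rose and 6 fell (20.8% of all genes passed, 9.10% higher and 11.7% lower), with a median of -0.22. At 0.25 µM none rose and 3 fell (14.4%, 7.05% higher and 7.39% lower), with a median of -0.18, and the count of genes with negative values was 31 in each of these and under Control-768. At 0.5 µM 1 rose and 8 fell (23.2%, 10.5% higher and 12.7% lower), with a median of -0.36 and 35 negative values. Without both arrays numbered 3 at 0.5 µM, the counts were 1 higher and 19 lower with DMSO (26.1% of all genes, 14.9% lower), 2 higher and 17 lower at 0.25 µM (20.9%, 11.4% lower), and 0 higher and 8 lower at 0.5 µM (11.3%, 5.75% lower), where 2 arrays per group were left. In 22 genes with DMSO, 20 at 0.25 µM and 6 at 0.5 µM all restimulated arrays were below all resting arrays, against 20.2%, 18.6% and 18.7% of all genes, and in 1 gene each (Orc1 with DMSO and at 0.25 µM, Pold2 at 0.5 µM) all were above, against 17.1%, 16.3% and 2906 of the 18193 genes. The tests of whether the I-BET-762 difference changed between the states called none of the 41 genes at either dose in limma, with 0% of all genes called. At an unadjusted p under 0.05 there were 1 gene at 0.5 µM (Pold2) and 0 at 0.25 µM, with the share of all genes at that threshold not given here.

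Other genes of the same processes changed in both directions on restimulation under Control-768, where 8.86% of all genes rose and 11.2% fell. These lists share no gene with the 42. Among 15 further origin and helicase genes 1 rose (Orc2, an ORC subunit, 0.71 ± 0.20, adjusted p = 0.0144) and 2 fell (Orc5, a further ORC subunit, -0.69 ± 0.21, adjusted p = 0.0221, and Mcm8, an MCM-like helicase of DNA repair, -0.70 ± 0.18, adjusted p = 0.00778), with a list median of -0.24. Among 19 further fork genes 1 rose, the topoisomerase Top1 (0.85 ± 0.13, adjusted p = 0.000175), and 3 fell, the polymerase delta subunit Pold4 (-0.99 ± 0.20, adjusted p = 0.00178), the clamp loader protein Chtf18 (-0.94 ± 0.24, adjusted p = 0.00796) and the fork protection factor Timeless (-0.59 ± 0.17, adjusted p = 0.0182). The list median was -0.10. Of 9 replication-coupled chromatin genes 1 fell, the histone chaperone Asf1b (-0.99 ± 0.25, adjusted p = 0.00794), and none rose.

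The lists of nucleotide supply and of E2F genes had medians above 0, and the G2/M list had the lowest median. Of 11 measured further nucleotide supply genes 3 rose and 1 fell, with a median of 0.19. CTP synthase Ctps rose by 1.03 ± 0.26 (adjusted p = 0.00707), the one-carbon enzyme Shmt1 by 1.39 ± 0.37 (adjusted p = 0.0110) and the UMP synthase Umps by 0.69 ± 0.24 (adjusted p = 0.0467), while the dNTP hydrolase Samhd1 fell by 0.78 ± 0.27 (adjusted p = 0.0463). Of 19 further E2F and G1/S genes 5 rose and 2 fell, with a median of 0.12. The pocket proteins Rb1 and Rbl2, which hold E2F factors in check, fell, with differences of -0.92 ± 0.14 (adjusted p = 0.000163) and -1.30 ± 0.23 (adjusted p = 0.000636). Cyclin E2 (Ccne2) rose by 1.21 ± 0.23 (adjusted p = 0.000863) and E2f5 by 1.17 ± 0.23 (adjusted p = 0.00132). In the G2/M list, 12 of 19 genes fell and 0 rose, with a median of -0.72, and the smallest adjusted p belonged to the kinetochore protein Cenpf (-1.33 ± 0.23, adjusted p = 0.000469).

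In the fit over all arrays, no replication gene passed the test in any comparison of I-BET-762 with Control-768. With the replicate number as a block within each state 1 gene passed at 0.5 µM, Rfc3, which was lower in both states. At 0.5 µM 0 of 41 passed in resting cells, against 1.41% of all genes, and 0 of 41 in restimulated cells, against 0.726%. At 0.25 µM there were 0 in each state, against 0.0660% and 0.0715%. At an unadjusted p under 0.05 the limma counts were 2 (Pold2 and Rfc3) and 0 at 0.5 µM and 0 and 0 at 0.25 µM. The shares of all genes at that threshold are not given here. These unadjusted counts, and those that follow, are therefore not a result about the list. Both doses pooled against both controls also gave 0 of 41 in resting (1.85% of all genes) and in restimulated cells (1.20%), with 0 at an unadjusted p under 0.05 in each. The medians at 0.5 µM were -0.05 in resting and -0.19 in restimulated cells, and at 0.25 µM 0.04 and 0.08. The 95% intervals stayed wide: for Pcna at 0.5 µM in restimulated cells it ran from -0.49 to 0.12, and for Cdc6 from -0.97 to 0.28. The comparisons with I-BET-762 and with restimulation under Control-768 share the Control-768 arrays.

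No gene of the other 6 lists passed in these comparisons either, and none of the 41 differed between Control-768 and DMSO, where 0% of all genes passed in each state and 0 of the 41 had an unadjusted p under 0.05. Their Control-768 minus DMSO differences lay between -0.10 and 0.18 in resting and between -0.11 and 0.05 in restimulated cells. Between the doses, 0 of 41 passed in resting (0.0660% of all genes) and 0 in restimulated cells (0.0110%), with 2 (Pold2 and E2f1) and 1 (E2f1) at an unadjusted p under 0.05 in limma.

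Within replicate numbers the 0.5 µM arrays split. Each I-BET-762 array was set against the Control-768 array of the same state and number. In resting cells the median difference of the 41 genes at 0.5 µM was 0.12 for the pair numbered 1, 0.10 for the pair numbered 2 and -0.40 for the pair numbered 3. In restimulated cells it was 0.03, 0.13 and -0.79. The same medians over all genes were -0.03, -0.01 and 0.02 in resting and 0.01, 0.02 and -0.01 in restimulated cells. In each state the pairs numbered 1 and 2 had medians above 0, from 0.03 to 0.13, and the pair numbered 3 had one below 0.

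The number of lowered genes followed the same split. In resting cells 8, 11 and 37 of 41 genes were lower in the pairs numbered 1, 2 and 3, and in restimulated cells 20, 6 and 39. A difference of -0.5 or below was reached by 0, 0 and 15 genes in resting cells, against 7.94%, 6.75% and 12.5% of all genes. In restimulated cells it was reached by 1, 1 and 33 genes, against 6.67%, 6.07% and 13.9%. The single gene past that size in both restimulated pairs numbered 1 and 2 was Rfc3. At 0.25 µM the pair medians were 0.14, 0.03 and -0.02 in resting and 0.05, 0.12 and 0.05 in restimulated cells, and no gene was lower by 0.5 or more in any pair, against 6.13%, 4.72% and 5.70% of all genes in resting and 5.67%, 4.59% and 5.89% in restimulated cells.

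**Figure D3:**
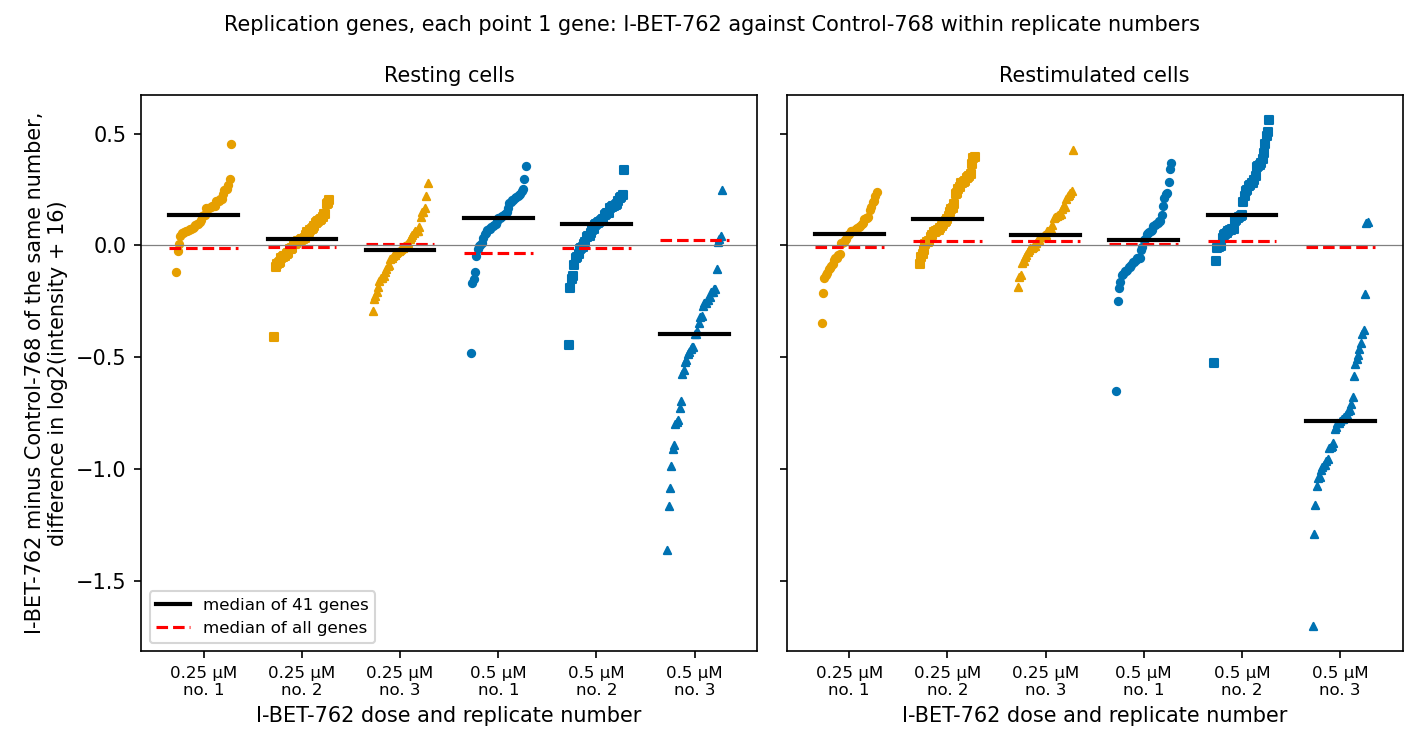
Each point is 1 of the 41 genes, as the difference in log2(intensity + 16) between an I-BET-762 array and the Control-768 array of the same state and number. Black lines are the medians of the 41 genes and dashed red lines those of all 18193 genes, which stay near 0. The pairs numbered 3 at 0.5 µM have medians of -0.40 in resting and -0.79 in restimulated cells, below the other 10 pairs.

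The array numbered 3 of restimulated cells with 0.5 µM was low across all 6 roles. Tk1 was lowest there, with -0.01, 0.28 and -1.70 in the pairs numbered 1, 2 and 3, followed by Pola1 (0.23, 0.38 and -1.29) and Cdc6 (0.11, 0.03 and -1.16). Helicase activation genes had a median of -0.99 in that pair, clamp and loader genes -0.81, origin licensing and MCM genes -0.78, nucleotide supply genes -0.78, polymerases and primase -0.76 and chromatin and control genes -0.59. Only E2f1 (0.10) and Pold2 (0.11) were not lower. For E2f1 the probe sets disagreed, since another with a mean of 274.8 had -1.02 in that pair, and one with a mean of 18.1, near the pseudocount, had -1.08. Of the 52 other probe sets of 33 genes, 37 had a mean intensity of at least 50, and 34 of these were lower there. Probe sets of Orc1 (0.65), Cdc45 (0.47) and Slbp (0.53), with means of 99.9, 130.1 and 151.4, were higher.

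The resting array numbered 3 at 0.5 µM did not repeat that order. Rfc3 (-1.36), Pold2 (-1.17), Gins2 (-1.08) and Uhrf1 (-0.99) were lowest against its Control-768 partner, while Tyms (0.25), Rpa1 (0.04), Rrm2 (0.03) and E2f1 (0.01) were not lower. The E2f1 probe sets disagreed here too, with -0.76 for the one with a mean of 274.8 and 0.33 for the one near the pseudocount. Rpa1 illustrates the difference between the states: at 0.5 µM it read 6782, 6847 and 6715 in resting and 4658, 5099 and 1756 in restimulated cells. G2/M genes also differed between these 2 arrays, with a median of -0.04 and 10 of 19 genes lower in the resting pair and -0.80 and 19 of 19 lower in the restimulated pair. Further nucleotide supply genes did the reverse, with medians of -1.07 in the resting and 0.14 in the restimulated pair.

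Against the mean of all 6 control arrays of its state, the array numbered 3 at 0.5 µM had a member median of -0.44 with 38 genes lower in resting cells, and -0.94 with 39 lower in restimulated cells. The 0.25 µM arrays numbered 3 had -0.05 in both states. The 3' minus 5' difference of the Gapdh control probe sets, a sign of RNA quality, was 0.31 on the restimulated 0.5 µM array and 0.28 and 0.29 on the restimulated Control-768 and 0.25 µM arrays numbered 3, whose member medians were -0.12 and -0.05. The Gapdh difference was 0.15 on the restimulated DMSO array numbered 3 and at most 0.099 on the arrays numbered 1 and 2. On the resting arrays numbered 3 it lay between -0.06 and 0.00. The same difference of the Actb control probe sets was 0.23 on the restimulated 0.5 µM array numbered 3. On the restimulated Control-768, 0.25 µM and DMSO arrays numbered 3 it was 0.32, 0.37 and 0.24. The summed CD4 T cell markers were highest on the 0.5 µM arrays numbered 3 (35528 resting, 33323 restimulated). The dendritic and MHC class II sum was 1310 and 409 there, against 1377 to 2422 on the control arrays in resting and 839 to 1608 in restimulated cells. The sums of CD8 T cell, B cell, myeloid and NK markers there were 566, 62.9, 232 and 84.9 in resting and 530, 69.7, 185 and 73.6 in restimulated cells. The part of these in the low replication genes was not tested.

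**Figure D4:**
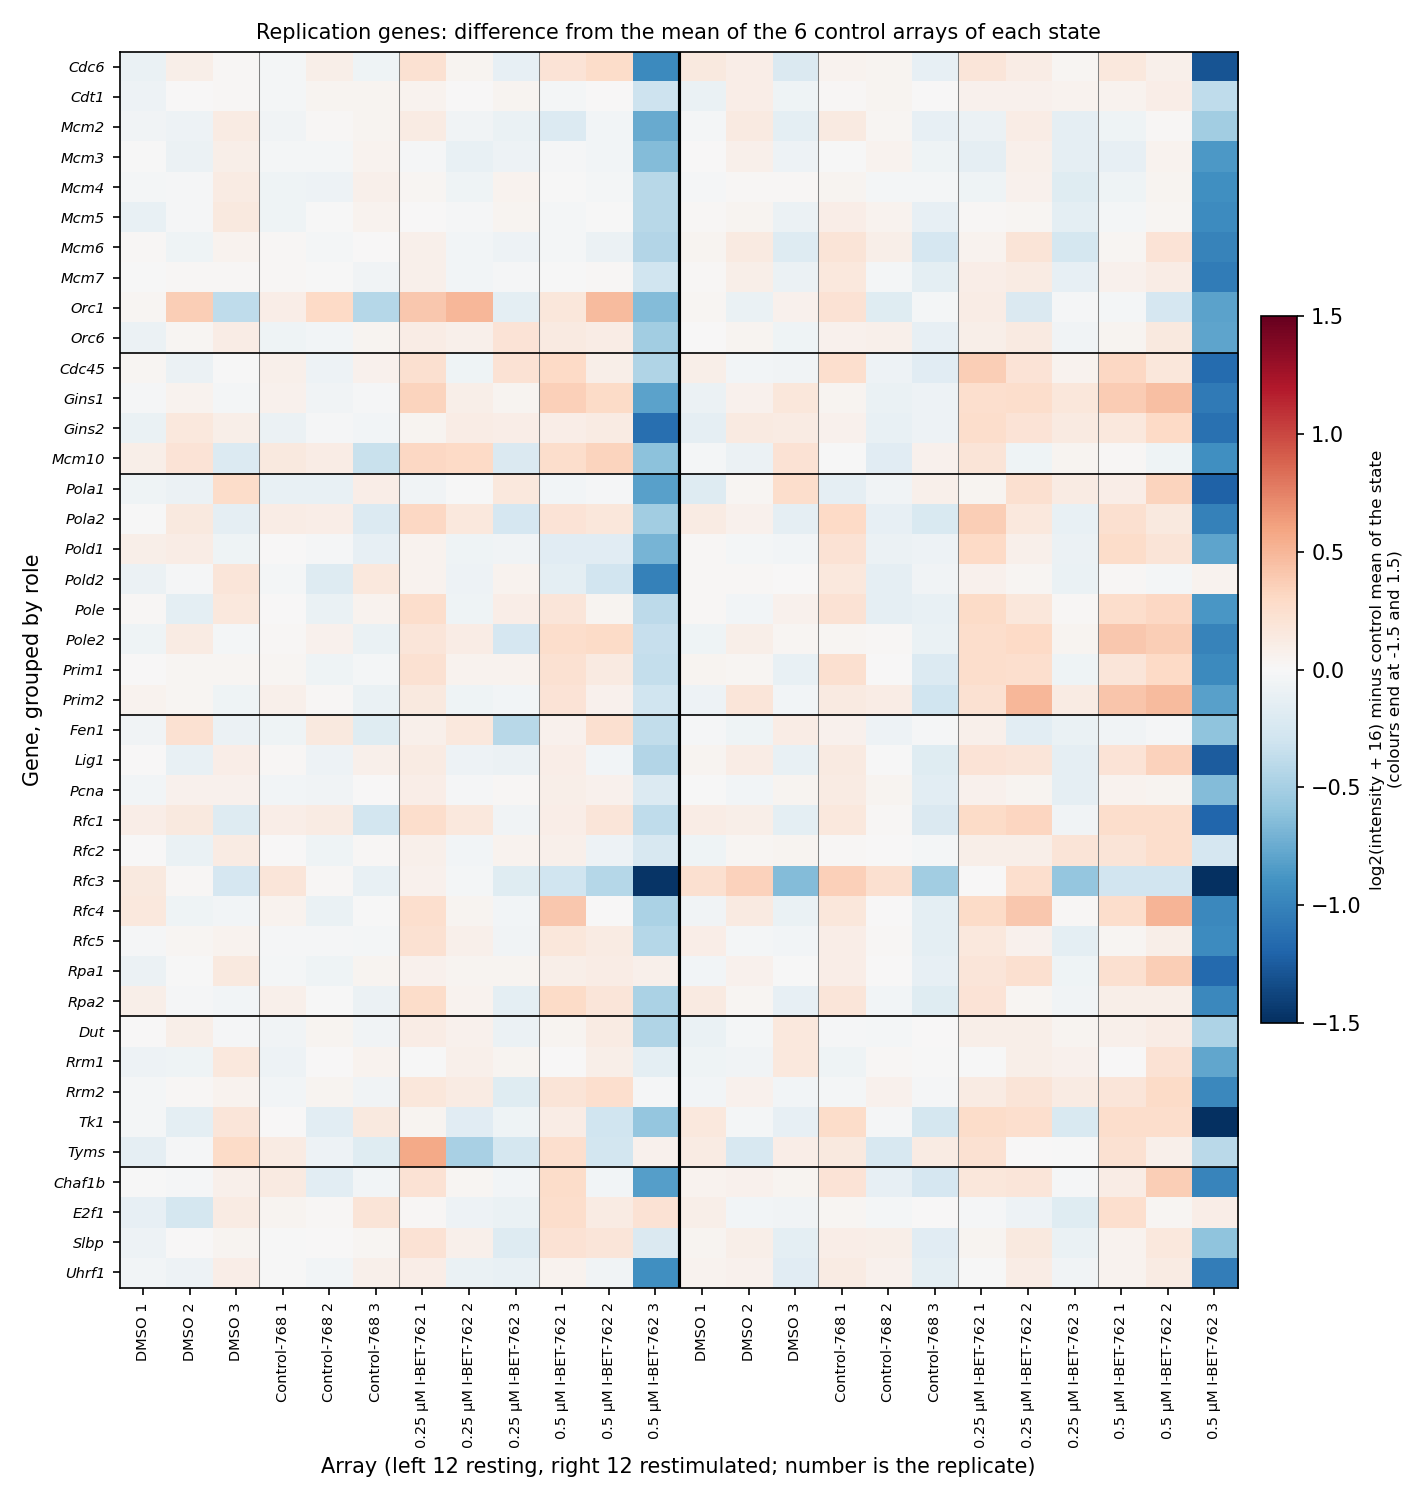
Rows are the 41 genes grouped by role (origin licensing and MCM, helicase activation, polymerases and primase, clamp and maturation, nucleotide supply, chromatin and control from top to bottom), columns the 24 arrays. Colour is the difference in log2(intensity + 16) from the mean of the 6 DMSO and Control-768 arrays of the same state. The array numbered 3 of 0.5 µM I-BET-762 is blue in 38 rows in resting and 39 rows in restimulated cells.

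Rfc3 and Mcm2 were the genes lower at 0.5 µM than with Control-768 under each replicate number in both states, and they were singled out after their values were seen. For Mcm2 the differences by number were -0.15, -0.05 and -0.80 in resting and -0.19, -0.0047 and -0.39 in restimulated cells, so the pair numbered 2 lay close to 0. Rfc3 is a subunit of the clamp loader. Rfc3 read 1579, 1438 and 1189 in the arrays numbered 1, 2 and 3 of resting cells with DMSO, 1618, 1433 and 1311 with Control-768, 1486, 1387 and 1255 with 0.25 µM and 1154, 1049.6 and 501 with 0.5 µM I-BET-762. The restimulated arrays read 2300.0, 2475 and 1232 with DMSO, 2495, 2302 and 1345 with Control-768, 1959, 2327 and 1298 with 0.25 µM and 1585, 1592 and 663 with 0.5 µM. Within numbers, the 0.5 µM minus Control-768 differences were -0.48, -0.44 and -1.36 in resting and -0.65, -0.53 and -1.0 in restimulated cells. At 0.25 µM they were -0.12, -0.05 and -0.06 in resting and -0.35, 0.02 and -0.05 in restimulated cells. All 3 resting arrays at 0.5 µM were below all 3 with Control-768, and in restimulated cells the groups overlapped. The restimulated array numbered 3 was the lowest of its group in every condition.

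Over all arrays the Rfc3 difference at 0.5 µM was -0.76 ± 0.35 (adjusted p = 0.44) in resting and -0.73 ± 0.35 (adjusted p = 0.634) in restimulated cells, and neither passed in limma. With the replicate number as a block within each state, Rfc3 passed in both, with the same differences and an SE of 0.16 (adjusted p = 0.0100 in resting, against 5.52% of all genes called, and 0.0197 in restimulated cells, against 3.35%). Without the arrays numbered 3 of all groups Rfc3 passed too, at -0.46 (adjusted p = 0.0435, 4.05% of all genes called) and -0.59 (adjusted p = 0.0168, 2.74%). With only the 2 low arrays at 0.5 µM left out, and no block, the differences were -0.39 (adjusted p = 0.792) and -0.31 (adjusted p = 0.912) and did not pass. That fit set the 0.5 µM arrays numbered 1 and 2 against Control-768 arrays of all 3 numbers. The restimulated Control-768 array numbered 3 read 1345, against 2495 and 2302 for numbers 1 and 2. A second Rfc3 probe set, with a mean of 915.4, had -0.58, -0.52 and -0.90 in the resting and -0.92, -0.50 and -1.18 in the restimulated pairs. Gins1, also picked out after its values were seen, differed in the other direction on the arrays numbered 1 and 2. Its 0.5 µM differences in restimulated cells were 0.34, 0.56 and -0.99 by number, and with both arrays numbered 3 at 0.5 µM left out it was higher by 0.46 ± 0.10 (adjusted p = 0.0368, against 1.01% of all genes called). With both doses and both controls pooled and those arrays left out, it was higher by 0.32 ± 0.07 (adjusted p = 0.0188, against 1.92%).

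The replication genes varied together from array to array within the groups. Over the 24 arrays, the mean pairwise correlation of their deviations from the group means was 0.75, against 0.015 over all genes. Most of that size came with the 2 low arrays: without them it was 0.31 over 22 arrays, and it was 0.23 over the 12 control arrays and 0.25 over the 16 arrays numbered 1 and 2, with 0.012 to 0.019 over all genes. G2/M genes gave 0.68, 0.32, 0.20 and 0.37. These are descriptions across genes that share arrays. Over all 24 arrays Rfc5 (0.99) and Prim1 (0.98) followed the mean of the other members most closely and E2f1 (0.12), Tyms (0.40) and Pold2 (0.40) least. These values hold for the chosen probe set of each gene, and the probe sets of some genes, E2f1 among them, disagreed. The median SD of a gene's deviations was 0.29 log2 over all arrays and 0.12 without the 2 arrays, which was close to the 0.12 of the control arrays.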

How the data were processed

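RNA of 24 cultures was amplified in 2 rounds, labelled with biotin and hybridised to Affymetrix mouse arrays, per the labels' protocols. The deposited values are 1 linear intensity per probe set and array. Their summarization and normalization are not given in the sources used here. Arrays carry no read depth, and their number limits the precision. Of 45101 probe sets, 34945 name a single symbol in the platform table, 932 name several, 9160 none, and 64 are control probe sets. The probe set with the highest mean was kept for each of 18193 symbols. By Entrez identifier 34741 probe sets matched a RefSeq gene, and 0 symbols were updated.

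Values were tested as log2(intensity + 16) with limma 3.58.1 in R 4.3.3, in 1 model with 8 group means and equal array weights (16 residual and 3.59 prior degrees of freedom, two-sided). Benjamini-Hochberg adjustment ran over all genes within each of 16 comparisons, with a threshold of 0.05. Samples were grouped by the labels, which call the replicates biological. The fit was tested on simulated data. The 42 genes, their roles, the other lists and the tests were chosen with earlier results of these data known.

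Intensities by array were given for 11 genes fixed by name (Mcm5, Cdc6, Cdc45, Pcna, Pola1, Rrm2, Tyms, Uhrf1, Chaf1b, Slbp and E2f1) and for those with the 3 largest rises or falls among genes called on restimulation under Control-768. Up to 8 genes called in a comparison with I-BET-762 were to be added, and there were none. In other lists up to 4 genes were named by adjusted p. Rfc3, Gins1, Tk1, Pold2, Pole2, Rpa1, Rfc2 and Cdt1 were described after their values were seen. As a check of pairing, deviations from group means of same-numbered arrays correlated in all 36 pairs within a state (r = 0.15 to 0.70), so the numbers pair samples there. Between states r was 0.03 to 0.16, over 0.1 in 8 of 12 pairs, so the numbers pair the states only weakly, if at all. Alternatives were pseudocounts of 1 and 64, a filter at a mean intensity of 50, quantile normalization, other choices of probe set, array weights, an intensity trend, a replicate block, only the compared groups, DMSO as control, and arrays left out.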

Additional observations from a re-analysis of the deposited data

How the results depend on the processing

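The direction of the members' median on restimulation held under every alternative run in all 4 conditions, but counts of calls did not. Of the restimulation counts of 6 (Control-768), 7 (DMSO), 3 (0.25 µM) and 9 (0.5 µM), array weights gave 16, 16, 12 and 15, and the compared groups alone gave 13, 14, 9 and 0. Without both arrays numbered 3 at 0.5 µM, an alternative chosen after seeing the data, the counts were 19, 20, 19 and 8. The shares of all genes called moved too, from 20.0%, 20.8%, 14.4% and 23.2% to 25.1%, 26.1%, 20.9% and 11.3%. Quantile normalization gave 6 at 0.25 µM and 15 at 0.5 µM, and leaving out dim genes gave 7 at 0.25 µM. Leaving out arrays gave 0 to 15 under Control-768, 0 to 17 with DMSO, 0 to 13 at 0.25 µM and 0 to 18 at 0.5 µM. For the other alternatives the shares of all genes are not given here, so their counts are not a result about the list. Beyond the shared estimate of the spread, the cause of these moves was not tested.

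The replicate number as a block over both states assumes a pairing between states that was weak at most. With it the counts were 10 under Control-768, 9 with DMSO, 6 at 0.25 µM and 13 at 0.5 µM, and 1 for 0.5 µM in resting cells. The shares of all genes under that block are not given here. The replicate block within each state was not run for the restimulation comparisons. In the comparisons it was run for, it gave 1 called gene (Rfc3) for 0.5 µM in resting and 1 in restimulated cells. It changed no other call among them.

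The counts of 0 with I-BET-762 became 1 in restimulated cells at 0.5 µM and 1 for the pooled doses without both arrays numbered 3 (Gins1 each time). Leaving out arrays gave 0 to 1 at 0.5 µM in each state and 0 to 3 for the pooled doses in restimulated cells, where Gins1, Pole2 and Rfc3 passed without the arrays numbered 3. The median at 0.5 µM against Control-768 turned from -0.19 to 0.13 in restimulated and from -0.05 to 0.12 in resting cells without both arrays. The median on restimulation at 0.5 µM ranged from -0.57 to -0.010 with arrays left out, with -0.010 without the restimulated array numbered 3. At 0.25 µM it ranged from -0.28 to -0.16, and it was -0.29 without probe sets that can match several transcripts. The median at 0.25 µM against Control-768 in restimulated cells ranged from 0.029 to 0.12.

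Without the arrays numbered 1, every restimulation call under Control-768 was lost (adjusted p from 0.0583 for Rfc2 to 0.259 for Pola1), with fewer arrays in the fit. Quantile normalization moved the median of all genes by under 0.1 log2 and left 34, 33, 32 and 37 of 41 genes negative. Dim probe sets such as that of Tyms give compressed differences.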
